A study of Mus musculus with 17 samples.

Results

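The genes described here are 54 protein-coding genes that drive the cell division cycle, taken by symbol from the 43346 genes of the deposited count table of a mouse extrahepatic cholangiocarcinoma study. They were sorted by role into 8 genes of the G1 cyclins and their kinases, 4 transcription factors, 16 genes of DNA replication and repair, and 26 genes of mitosis, and replication and mitosis are described apart. The series holds 17 RNA samples of mouse bile duct, all in 1 labelled group, titled as extrahepatic cholangiocarcinoma, with no genotype, strain, age, treatment or time in the labels. The 17 count columns are named by 6 codes (R62848, R62850, R63289, R63496 and R63500 with 3 libraries each, R63494 with 2) and a running number, and no source used here says what a code stands for. No condition could therefore be compared. The test used here asks only whether libraries that share a code lie closer to each other than to libraries of other codes. Its p-values weigh the differences between codes against the spread within codes. Nothing in the labels says that libraries of 1 code came from separate animals, so that spread within codes may be technical.

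A cell enters the cycle when D-type cyclins with Cdk4 or Cdk6, and then E-type cyclins with Cdk2, inactivate the retinoblastoma protein and free the E2F transcription factors. E2F factors switch on the genes that license origins, unwind DNA and supply deoxynucleotides in S phase. A later wave of genes, driven by Mybl2, Foxm1 and the MuvB complex, makes the cyclins, kinases and spindle proteins of mitosis. In a resting bile duct the epithelium divides rarely, and tumour, stromal and immune cells can all contribute cycling cells to a piece of tissue.

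The libraries held 16400556 to 24152314 counts over genes (median 17886041), and 15795 genes were counted deeply enough to test. All 54 members were among them. The cholangiocyte markers were present in every library, with Krt8, a keratin of simple epithelia, at 1608 to 2734 CPM, the count scaled to the library's effective total. None of the 15 cholangiocyte markers was at 0. The 3 R62850 libraries carried pancreatic acinar genes at a summed 6459 to 146406 CPM, against 40.6 to 160 CPM in the other 14, and values without these 3 libraries are given below.

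The members covered a wide range of levels per kilobase of transcript (RPKM, obtained here by dividing CPM by each gene's length in the table). The median over libraries ran from 1.27 to 59.98 RPKM among G1 genes, from 0.745 to 2.74 among the transcription factors, from 0.395 to 25.7 among replication genes and from 0.310 to 24.1 among mitosis genes. The middle mitosis member lay at 1.73 RPKM and the middle replication member at 4.81 RPKM. Ccnd1 (59.98 RPKM) and Cdk4 (53.9 RPKM) led all members, followed by Pcna at 25.7 and Plk1 at 24.1 RPKM. Ttk, at 0.310 RPKM, was the lowest, with 4 counts in its lowest library.

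**Figure D1:**
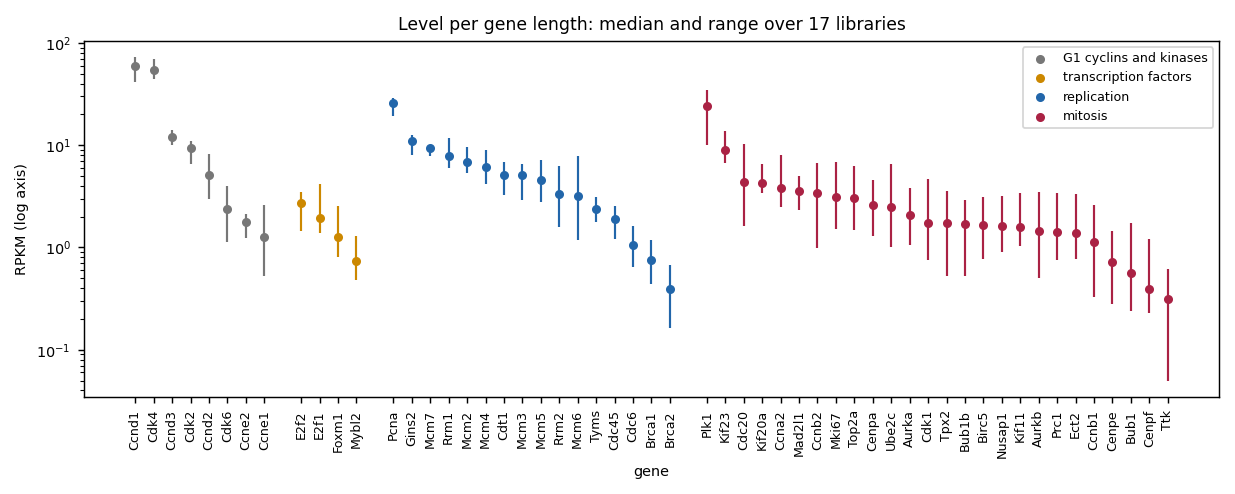
Level per kilobase of each of the 54 members in RPKM (log axis): the dot is the median over 17 libraries and the line runs from the lowest to the highest library, grouped by role. Ccnd1 and Cdk4 lie at the top (59.98 and 53.9 RPKM), and most mitosis genes lie below most replication genes.

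Most members differed between codes. At an adjusted p below 0.05, 44 of the 54 members differed between codes (edgeR's quasi-likelihood F test, Benjamini-Hochberg adjustment over all 15795 genes), where 48.7% of all genes tested did. The count was 24 of 26 for mitosis (92.3%), 11 of 16 for replication (68.8%), 6 of 8 for G1 genes (75.0%) and 3 of 4 for the transcription factors (75.0%). The 10 members that did not pass were Ccne2, Cdk2, Mybl2, Cdc6, Mcm7, Cdc45, Tyms, Brca2, Mad2l1 and Ttk, with adjusted p from 0.0531 (Cdc6) to 0.315 (Cdk2). Sizes separated the roles further. The highest code mean lay above the lowest by a median of 3.32-fold over the mitosis genes, 1.65-fold over the replication genes and 1.49-fold over the G1 genes, beside 1.49-fold over all genes tested. These folds, called code folds below, compare means of log2 CPM computed with a prior count of 2. A wide spread was not particular to mitosis genes. In log2 units their median was 1.73, beside 1.72 for the fibroblast and matrix markers and 2.26 for the heat shock genes described below. It was 0.657 for cholangiocyte and 0.917 for macrophage markers. The median SD within codes was also larger for mitosis genes, 0.279 against 0.204 for replication genes.

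**Figure D2:**
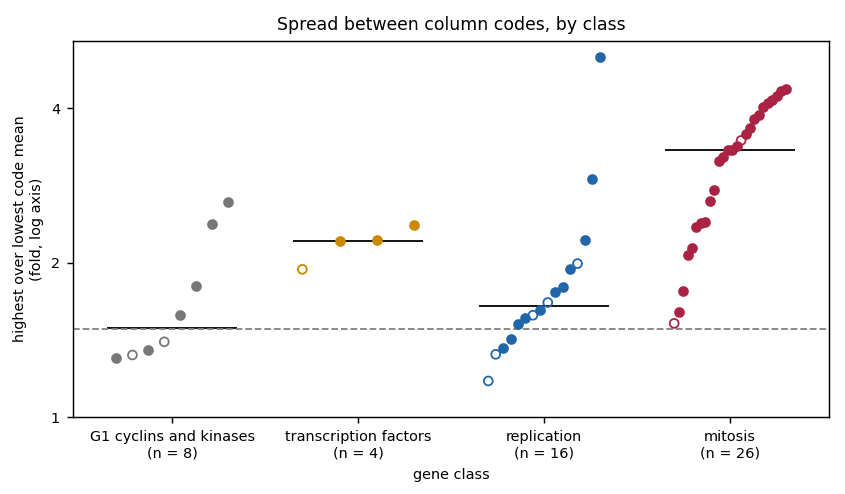
Highest over lowest code mean for each of the 54 members (fold, from mean log2 CPM, log axis), by role, with filled points for members that passed the test between codes, open points for those that did not, short lines for the median of each role and a dashed line for the median of all genes tested (1.49-fold). Mitosis genes have a median of 3.32-fold and replication genes of 1.65-fold, and Mcm6 at 5.04-fold lies beyond every mitosis gene.

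By the median of each role, the G1 genes were the most abundant per kilobase and the most even between codes, though single members were not. Ccnd1, the cyclin D1 that starts the passage out of G1 (ENSMUSG00000070348, mm10 chromosome 7, 144929931 to 144939869), had 158, 179 and 169 CPM in the R63496 libraries and 211 to 279 CPM in the other 14. The R63496 libraries lay below all others, which held for 178 of the 15795 genes tested. The code fold was 1.58 and the adjusted p 0.000196. Cdk4, its kinase partner, ran from 144 to 228 CPM around a median of 175 CPM, a code fold of 1.35 (adjusted p = 0.0145). Cdk6, the other kinase of D cyclins, had the largest code fold of this group, 2.62, from 4.20 CPM in R62850_2 to 14.8 CPM in R62848_2 (adjusted p = 0.00406). Ccne1, the cyclin E1 that acts with Cdk2 at the entry into S phase, lay at 1.39 to 6.88 CPM (median 3.38), highest in R63500_1, and passed the test narrowly (code fold 2.38, adjusted p = 0.0377). The other D cyclins also passed, Ccnd2 with 16.8 to 46.7 CPM and Ccnd3 with 88.2 to 122 CPM. Ccne2 (4.30 to 7.48 CPM) and Cdk2 (15.8 to 26.7 CPM) did not. Of the 8 G1 genes, 3 had their highest code mean in R63500, as did 18.3% of all genes tested, and 2 their lowest in R63494, as did 22.5%. These 2 codes, at which most mitosis genes lay highest and lowest, were singled out after the values were seen.

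Among the transcription factors, E2f1, an activator of S phase genes, had 4.40 to 13.2 CPM (median 6.10), lowest in R62850_1 and highest in R63500_3, with a code fold of 2.20 (adjusted p = 0.00172). E2f2, a second activator, was lowest in R63494_1 at 7.14 CPM and highest in R62848_2 at 16.97 CPM, and its code fold was 2.22 (adjusted p = 0.000303). Foxm1, an activator of the mitotic wave, ran from 4.39 CPM in R62850_3 to 14.003 CPM in R63500_3, a code fold of 2.37 (adjusted p = 0.000731). Mybl2, the B-Myb factor that joins the MuvB complex, ran from 2.22 to 6.06 CPM and missed the threshold (adjusted p = 0.0551). E2f1, Foxm1 and Mybl2 had their highest code mean in R63500, and E2f2 in R62848.

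The replication genes spread less between codes than the mitosis genes, with code folds from 1.18 (Mcm7) to 5.04 (Mcm6). Pcna, the sliding clamp of the DNA polymerases (mm10 chromosome 2, 132249162 to 132253314), lay at 46.4 and 48.8 CPM in the 2 R63494 libraries and at 54.4 to 69.5 CPM in the other 15. The R63494 libraries did not overlap the rest, and the code fold was still only 1.37 (adjusted p = 0.00271). Every R63494 library lay below every other library for 4 replication genes (Cdt1, Mcm6, Pcna and Rrm2), and this held for 5.62% of all genes tested. Gins2, a subunit of the GINS part of the replicative helicase, was lowest in R62848_3 at 33.1 CPM and highest in R62850_1 at 52.0 CPM (code fold 1.42, adjusted p = 0.0102). Its gene overlaps Gse1, at a median of 78.4 CPM. In all, 15 of the 54 members overlap another protein-coding gene in the table (5 of the G1 genes, 1 transcription factor, 4 replication and 5 mitosis genes). Among them are Cdk4 with Tspan31 (median 105 CPM), Mcm7 with Cops6 (72.2 CPM), Cdc45 with Ufd1l (49.9 CPM against 4.25 for Cdc45) and Ccna2 with Exosc9 (17.5 CPM). No source used here says whether reads were counted by strand or how reads in overlaps were assigned, so the counts of these 15 are uncertain. Cdt1 and the gene it overlaps, Gm20388, lie on the same strand, so counting by strand would not separate them.

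The 6 Mcm genes encode the ring that unwinds DNA at the fork, in which each subunit occurs once. Their transcripts spread to different degrees. Mcm7 spanned 34.8 to 44.8 CPM with a code fold of 1.18 and did not pass (adjusted p = 0.0738). Mcm2, Mcm3 and Mcm4 had code folds of 1.56, 1.76 and 1.62, and Mcm2 was highest in the R62848 libraries at 29.6 to 32.2 CPM. Mcm5 ran from 9.49 CPM in R62850_2 to 24.8 CPM in R63500_1 (code fold 2.21, adjusted p = 0.00124).

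Mcm6 (ENSMUSG00000026355, mm10 chromosome 1, 128331590 to 128359664) stood apart from the rest of its ring. It had 35.7, 29.7 and 36.2 CPM in the R63500 libraries, 18.8, 24.5 and 19.4 CPM in R62848, 11.8, 15.3 and 13.2 CPM in R62850, and 9.58, 12.2 and 14.97 CPM in R63289. In R63496 it had 13.3, 13.7 and 15.04 CPM, and in R63494 7.93 and 5.50 CPM. The R63500 libraries lay above all others and the R63494 libraries below all others. The means were 33.8 ± 3.63 CPM (SD, n = 3) and 6.72 ± 1.72 CPM (SD, n = 2), the code fold was 5.04, and the adjusted p was 2.4e-07, the smallest of the 54 members. Mcm6 was the only replication gene for which every R63500 library lay above every other library, which held for 2.32% of all genes tested.

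The enzymes of deoxynucleotide supply did not move as 1 group. Rrm1, the large subunit of ribonucleotide reductase, had 23.7 to 46.7 CPM and a code fold of 1.52 (adjusted p = 0.0055). Rrm2, its small subunit, which is degraded after S phase, had 4.42 to 17.2 CPM and a code fold of 2.92 (adjusted p = 0.000305). Tyms, thymidylate synthase, had 10.9 to 19.0 CPM and did not pass (adjusted p = 0.255). Of the 2 genes of recombination repair, Brca1 was lowest in R62850_1 at 3.78 CPM and highest in R62848_2 at 10.2 CPM (code fold 1.95, adjusted p = 0.00238). Brca2, of the same pathway, lay at 1.73 to 7.19 CPM and did not pass (adjusted p = 0.201). Cdt1, which loads the Mcm ring on origins, had 7.15 to 14.98 CPM and passed (adjusted p = 0.0294). Cdc6, its partner at origins, had 3.36 to 8.53 CPM, and Cdc45, a subunit of the active helicase, had 2.73 to 5.69 CPM. Neither of the latter pair passed.

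The promoters of Mcm6 and Mcm5, the 2 Mcm genes with the largest code folds, are shown because they carry the letters of E2F sites, the hallmark of S phase genes. Each is the RefSeq window of 300 bases, 250 before and 50 after the annotated start, on GRCm38.p6, written 5′ to 3′ on the gene's strand. Capitals mark matches, on either strand, to an E2F site (TTTGGCGC or TTTCCCGC or TTTGCCGC or TTTCGCGC), a CCAAT box (CCAAT or its reverse complement ATTGG) or a CHR, the cell cycle genes homology region (TTTGAA or TTTAAA). Adjacent capitals can be overlapping matches.
Mcm6 (chr1:128359656-128359955, minus strand): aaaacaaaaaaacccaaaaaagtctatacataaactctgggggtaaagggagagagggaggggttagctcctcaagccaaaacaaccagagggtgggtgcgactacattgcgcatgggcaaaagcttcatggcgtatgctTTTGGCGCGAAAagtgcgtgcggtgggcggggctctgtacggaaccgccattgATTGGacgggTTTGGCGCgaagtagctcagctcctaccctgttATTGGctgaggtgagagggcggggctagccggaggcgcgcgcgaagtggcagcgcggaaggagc
Mcm5 (chr8:75109259-75109558, plus strand): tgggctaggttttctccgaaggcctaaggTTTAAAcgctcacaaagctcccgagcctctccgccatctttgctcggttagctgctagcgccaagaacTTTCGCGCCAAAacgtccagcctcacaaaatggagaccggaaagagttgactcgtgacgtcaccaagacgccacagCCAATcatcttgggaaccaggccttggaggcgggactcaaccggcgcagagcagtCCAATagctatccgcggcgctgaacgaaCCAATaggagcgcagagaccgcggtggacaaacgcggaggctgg
In the Mcm6 window the E2F letters begin at -110, -106 and -47 relative to the start, the first pair overlapping, with CCAAT boxes at -57 and -14. In the Mcm5 window they begin at -153 and -149, again overlapping, with CCAAT boxes at -77, -22 and 7 and a TTTAAA at -221. Whether E2F letters go with the size of the code fold was not tested. Mcm3, with a code fold of 1.76, has 2 matches. Mcm7, with the smallest code fold of the replication genes (1.18), has 2 in 1 window and 0 in another. A match is a description of letters and not evidence of binding.

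Most mitosis genes shared their highest and their lowest code. Of the 26, 25 had their highest code mean in R63500 (18.3% of all genes tested did) and 24 their lowest in R63494 (22.5% of all genes tested). Many replication genes shared these codes too: 10 of the 16 were highest in R63500 (62.5%) and 9 lowest in R63494 (56.2%). For 12 of the 26 every R63500 library lay above every other library (2.32% of all genes tested), and for 12 every R63494 library lay below every other library (5.62% of all genes tested). Cdk1, Bub1b, Cdc20, Cenpf and Prc1 met both. The exceptions were Plk1, which is described apart, and Aurka, whose highest code was R63500 and whose lowest was another code than R63494. The codes between were less fixed: R62848 had the second highest code mean for 16 of the 26. Within R63500, library 2 lay below both of its fellows for 25 of the 26 genes. The same held for 14 of 16 replication genes, 6 of 8 G1 genes and 4 of 4 transcription factors. For neither this nor the R62848 count was the share over all genes computed.

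**Figure D3:**
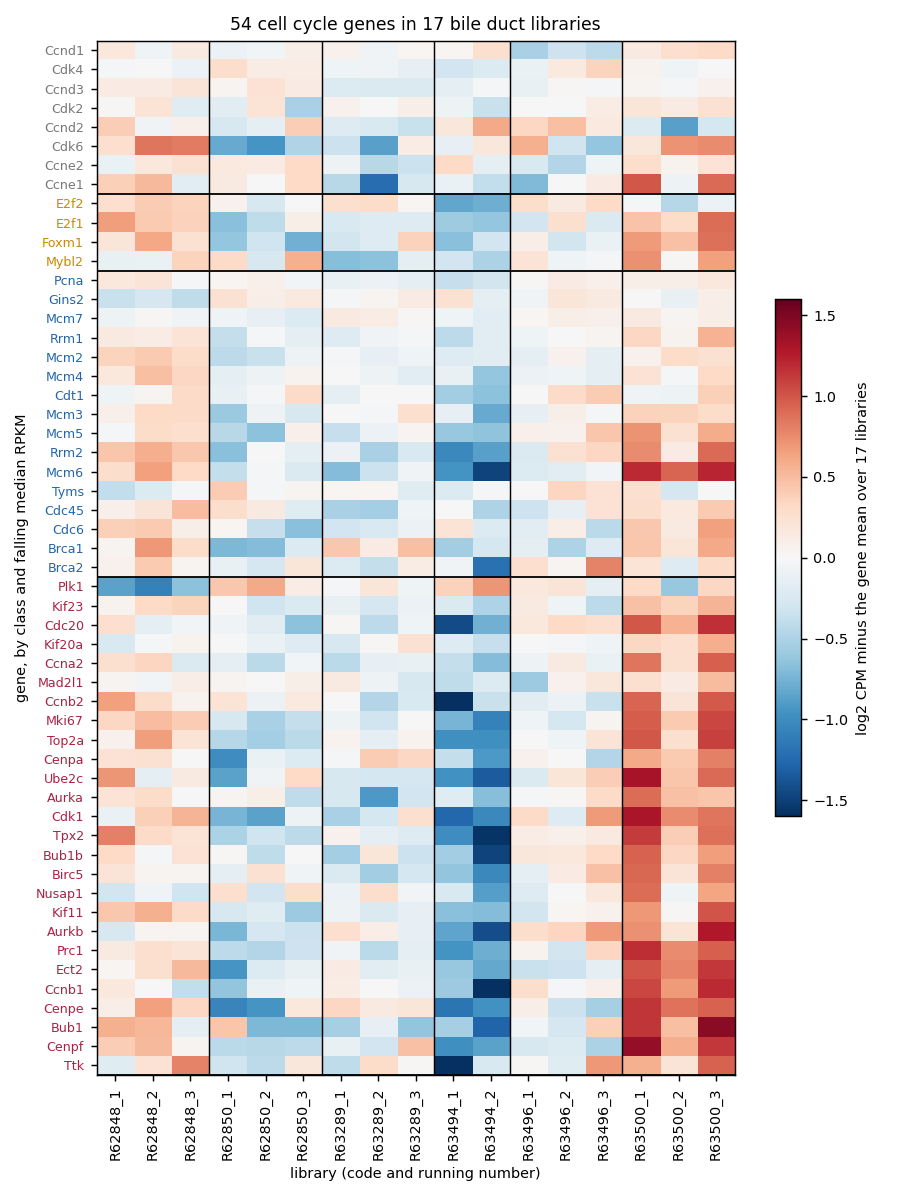
Level of each of the 54 members in each of the 17 libraries, as log2 CPM minus the gene's mean over libraries (colour), with libraries in columns by code and genes in rows by role. The R63500 columns are high and the R63494 columns low through the mitosis rows, Plk1 shows another order, and most G1 rows show little contrast.

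The mitotic cyclins and their kinase showed the order clearly. Cdk1, the kinase that starts mitosis (ENSMUSG00000019942, mm10 chromosome 10, 69336635 to 69352938), had 15.9, 10.8 and 11.6 CPM in R63500 and 2.603 and 3.08 CPM in R63494. The other 4 codes ran from 3.49 CPM in R62850_2 to 10.3 CPM in R63496_3, so neither of the 2 codes overlapped them, and the code fold was 4.33 (adjusted p = 0.000195). Ccnb1, its cyclin B1 partner, had 10.1, 7.73 and 11.002 CPM in R63500 and 1.39 to 5.82 CPM in the others, a code fold of 4.35 (adjusted p = 0.000355), the largest of the mitosis genes. Ccnb2, cyclin B2, ran from 1.51 CPM in R63494_1 to 10.3 CPM in R63500_3 (code fold 3.32, adjusted p = 0.0055). Ccna2, the cyclin A2 of S phase and early mitosis, had 8.79 to 27.95 CPM and a smaller code fold of 2.35 (adjusted p = 0.000529).

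Among the mitotic kinases and the spindle checkpoint, Aurkb, the Aurora kinase of the chromosomal passenger complex, had 1.47 to 10.2 CPM (code fold 3.66) and Aurka, that of the spindle poles, 2.67 to 9.64 CPM (code fold 2.14). Bub1, a checkpoint kinase of the kinetochore, had 1.04 to 7.48 CPM with a median of 2.44 (code fold 3.81, adjusted p = 0.00386). Bub1b, which restrains the anaphase ligase, had 2.25 to 12.5 CPM (code fold 3.16). Birc5, survivin, had 2.64 to 10.5 CPM (code fold 2.78). Mad2l1, the checkpoint protein that holds Cdc20, had 5.08 to 10.9 CPM around 7.91 and did not pass (adjusted p = 0.253). Ttk, the kinase at the head of the checkpoint, had 0.242 to 3.001 CPM and did not pass (adjusted p = 0.169), and its lowest library held 4 counts.

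Cdc20, the activator of the anaphase-promoting ubiquitin ligase (ENSMUSG00000006398, mm10 chromosome 4, 118432901 to 118437352), had 16.8, 12.4 and 19.1 CPM in R63500, 3.03 and 4.90 CPM in R63494 and 5.28 to 10.5 CPM in the other 12. Both codes stood clear of the rest. The means were 16.1 ± 3.38 CPM (SD, n = 3) and 3.96 ± 1.32 CPM (SD, n = 2), with a code fold of 4.02 (adjusted p = 5.32e-05). Cdc20 overlaps Elovl1, whose median was 114.5 CPM and whose highest code was R62850. Ube2c, the ubiquitin-conjugating enzyme of the same ligase, had 2.599 to 16.9 CPM (code fold 4.10, adjusted p = 0.000819).

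Mki67, the Ki-67 protein that coats mitotic chromosomes and is the usual proliferation marker (ENSMUSG00000031004, mm10 chromosome 7, 135689788 to 135716379), had 64.2, 43.7 and 68.4 CPM in R63500, 41.0, 46.2 and 43.4 CPM in R62848, and 27.3, 22.9 and 25.0 CPM in R62850. It had 31.0, 26.2 and 32.6 CPM in R63289, 31.2, 26.9 and 33.6 CPM in R63496, and 19.5 and 15.4 CPM in R63494. The R63494 libraries lay below all others, while R63500_2 lay within the range of R62848. The means were 58.8 ± 13.2 CPM (SD, n = 3) in R63500 and 17.4 ± 2.91 CPM (SD, n = 2) in R63494, with a code fold of 3.32 (adjusted p = 7.03e-07). Top2a, the topoisomerase that untangles sister chromatids, had 52.5, 31.4 and 56.1 CPM in R63500, 13.3 CPM in both R63494 libraries and up to 41.9 CPM elsewhere, a code fold of 3.38 (adjusted p = 9.67e-06). At the kinetochore, Cenpe, a motor that captures microtubules, had 2.18 to 11.2 CPM (code fold 4.15, adjusted p = 0.000235). Cenpf, a large kinetochore and matrix protein, had 18.8, 10.5 and 15.5 CPM in R63500, 3.51 and 3.81 CPM in R63494 and 4.90 to 10.1 CPM in the others (code fold 3.89, adjusted p = 2.37e-05). Cenpa, the histone variant of centromeres, had 3.21 to 11.4 CPM (code fold 2.40).

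In the spindle and cytokinesis group all 7 genes passed. Prc1, which bundles the microtubules of the central spindle (ENSMUSG00000038943, mm10 chromosome 7, 80294450 to 80316259), had 27.9, 20.8 and 23.7 CPM in R63500, 6.23 and 7.06 CPM in R63494 and 8.79 to 15.4 CPM elsewhere. No library of these 2 codes fell in the range of the rest (code fold 3.56, adjusted p = 1.92e-06). Tpx2, which activates Aurka on the spindle, ran from 2.47 to 16.5 CPM (code fold 4.22, adjusted p = 2.27e-05), and Ect2, which triggers the cleavage furrow, from 4.001 to 17.2 CPM (code fold 3.22, adjusted p = 3.4e-05). The motors Kif23 and Kif20a, both of the midzone, were the most abundant of this group per kilobase (8.94 and 4.30 RPKM) and among the least variable. Kif23 had 22.7 to 46.8 CPM (code fold 1.77, adjusted p = 0.000578) and Kif20a 12.8 to 25.0 CPM (code fold 1.61, adjusted p = 0.0153), and every R63500 library still lay above all others for both. Kif20a overlaps Cdc23, which had a median of 48.6 CPM. The motor Kif11 (4.94 to 16.4 CPM) and Nusap1, a microtubule binder (3.68 to 12.9 CPM), had code folds of 2.39 and 2.07.

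The promoters of Cdc20, Prc1, Cenpf and Cdk1, for which R63500 and R63494 both stood clear of the other libraries, are shown with that of Plk1, which did not follow them. Windows and capitals are as above.
Cdc20 (chr4:118437294-118437593, minus strand): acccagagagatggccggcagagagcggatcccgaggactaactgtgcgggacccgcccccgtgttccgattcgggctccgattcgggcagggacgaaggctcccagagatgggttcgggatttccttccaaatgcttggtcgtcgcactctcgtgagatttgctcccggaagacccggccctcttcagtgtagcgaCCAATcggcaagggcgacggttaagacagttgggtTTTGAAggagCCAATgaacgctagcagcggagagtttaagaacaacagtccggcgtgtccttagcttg
Prc1 (chr7:80294201-80294500, plus strand): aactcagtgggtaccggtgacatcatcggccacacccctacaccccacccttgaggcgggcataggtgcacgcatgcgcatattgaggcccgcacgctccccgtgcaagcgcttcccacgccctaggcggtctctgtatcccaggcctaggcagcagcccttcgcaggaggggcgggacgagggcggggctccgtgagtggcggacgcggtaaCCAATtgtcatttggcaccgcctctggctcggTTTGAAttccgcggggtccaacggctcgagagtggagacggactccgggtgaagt
Cenpf (chr1:189688037-189688336, minus strand): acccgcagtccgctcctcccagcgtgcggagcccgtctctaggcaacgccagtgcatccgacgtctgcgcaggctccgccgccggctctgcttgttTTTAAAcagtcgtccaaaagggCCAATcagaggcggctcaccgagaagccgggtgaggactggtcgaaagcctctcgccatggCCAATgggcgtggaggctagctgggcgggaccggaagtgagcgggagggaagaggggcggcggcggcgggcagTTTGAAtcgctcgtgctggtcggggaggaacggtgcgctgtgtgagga
Cdk1 (chr10:69352863-69353162, minus strand): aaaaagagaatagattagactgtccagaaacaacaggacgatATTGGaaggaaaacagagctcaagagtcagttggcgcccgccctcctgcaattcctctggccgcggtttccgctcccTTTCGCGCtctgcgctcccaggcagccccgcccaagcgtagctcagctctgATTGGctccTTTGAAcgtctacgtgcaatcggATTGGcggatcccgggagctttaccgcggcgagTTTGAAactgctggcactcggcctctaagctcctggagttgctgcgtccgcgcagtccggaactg
Plk1 (chr7:122159185-122159484, plus strand): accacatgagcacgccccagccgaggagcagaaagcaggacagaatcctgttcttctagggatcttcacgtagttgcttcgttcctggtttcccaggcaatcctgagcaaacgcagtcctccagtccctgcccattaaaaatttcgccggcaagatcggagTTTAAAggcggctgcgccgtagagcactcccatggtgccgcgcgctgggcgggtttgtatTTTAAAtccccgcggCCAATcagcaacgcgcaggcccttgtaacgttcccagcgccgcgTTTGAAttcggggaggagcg
All 5 windows hold a TTTGAA and a CCAAT box. In Cdc20 the TTTGAA begins at -18, between CCAAT boxes at -53 and -8, and in Prc1 it begins at -5 with a CCAAT box at -37. In Cenpf it begins at 3, with CCAAT boxes at -132 and -71 and a TTTAAA at -154. Cdk1 has TTTGAA at -71 and -15, CCAAT boxes on the other strand at -208, -80 and -48, and an E2F match at -131, the only one among the mitosis windows. Plk1 has TTTGAA at 31, TTTAAA at -89 and -29, and a CCAAT box at -14.

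Windows were found in RefSeq for 44 of the 54 members, 49 windows in all. A CHR match was present in 87.5% of the 24 windows of 22 mitosis genes and in 26.7% of the 15 windows of 14 replication genes, beside 27.6% of all 32851 windows of the same length. For TTTGAA alone the shares were 75%, 13.3% and 17.9%. A TTTGAA together with a CCAAT box occurred in 75% of the mitosis windows, 13.3% of the replication windows and 6.95% of all windows. An E2F match was present in 4.17% of the mitosis windows, 46.7% of the replication windows and 2.26% of all windows. CCAAT boxes were common in both, at 87.5% and 73.3%, against 37.4% of all windows. Some genes have 2 overlapping windows, so windows are not independent, and a window without a match says only that these letters are not in it.

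Plk1, the Polo-like kinase that acts from mitotic entry to cytokinesis (ENSMUSG00000030867, mm10 chromosome 7, 122159437 to 122169875), was the 1 mitosis gene whose highest code was not R63500. It had 26.1, 22.3 and 29.9 CPM in R62848, 63.6, 72.1 and 51.1 CPM in R62850, and 46.5, 53.98 and 44.9 CPM in R63289. It had 61.0 and 76.9 CPM in R63494, 53.1, 54.6 and 42.8 CPM in R63496, and 59.1, 30.9 and 59.5 CPM in R63500. The R62848 libraries lay below all others, which held for 293 of the 15795 genes tested. R63494, lowest for nearly all other mitosis genes, had the highest mean (code fold 2.64, adjusted p = 0.00203). At a median of 24.1 RPKM Plk1 also lay above every other mitosis gene per kilobase.

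The neighbour of Plk1 moved with it. Ern2, an endoplasmic reticulum stress sensor of mucus-secreting epithelia (mm10 chromosome 7, 122169893 to 122186216), lies on the opposite strand and ends 17 bases beyond the end of Plk1. It was looked up after the values of Plk1 were seen. Ern2 had 24.3, 28.3 and 33.7 CPM in R62848 and 85.5 and 92.3 CPM in R63494, its lowest and highest codes, as for Plk1 (adjusted p = 0.00964). In R63500 it had 68.4, 30.6 and 50.2 CPM, with library 2 low in both genes. The part of reads from Ern2 in the Plk1 counts was not tested, and the Plk1 values are therefore uncertain as a measure of its own transcript. Without Plk1, the mean log2 CPM of the mitosis genes spanned 1.82 between libraries, against 1.74 with it.

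**Figure D4:**
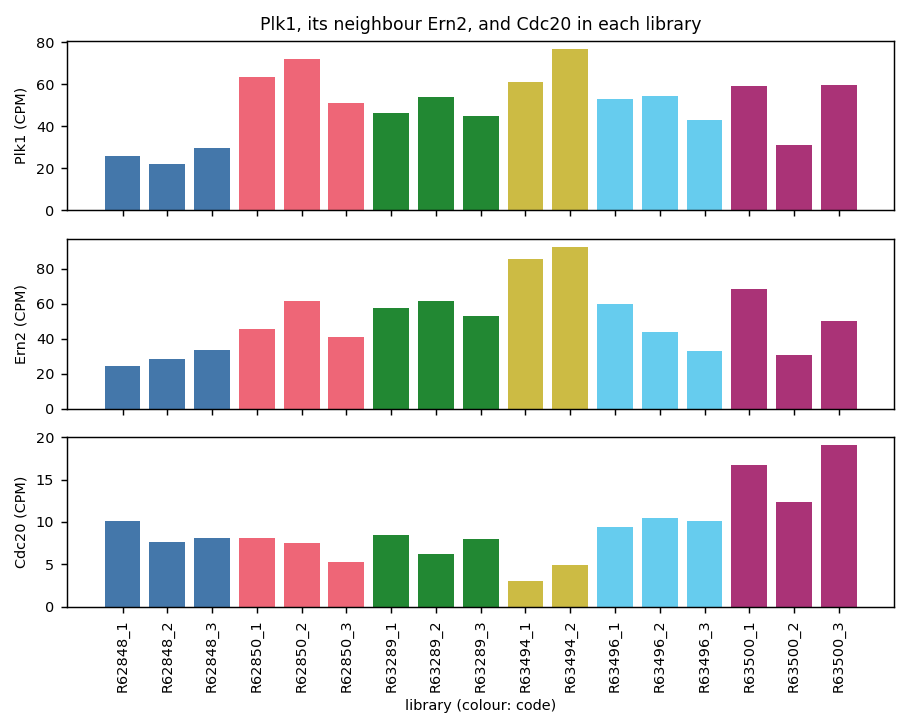
Level of Plk1, of its neighbour Ern2 and of Cdc20 for comparison in each of the 17 libraries (bars from 0, CPM, 1 panel a gene), coloured by code. Plk1 and Ern2 are both lowest in R62848 and highest in R63494_2 (76.9 and 92.3 CPM), while Cdc20 is low in the 2 R63494 libraries (3.03 and 4.90 CPM).

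Averaged over genes, the 2 classes had the same lowest and highest codes and spread to different extents. The mitosis score, the mean log2 CPM over the 26 genes, was 2.22 to 2.31 in R63494, 2.77 to 2.89 in R62850, 2.92 to 2.98 in R63289, 3.03 to 3.16 in R63496, 3.17 to 3.25 in R62848 and 3.42 to 3.96 in R63500. The codes did not overlap, and the whole span was 1.74 log2 units, or 3.34-fold. The replication score over 16 genes was 3.41 to 3.62 in R63494 and 4.05 to 4.36 in R63500, with the other 4 codes between 3.73 and 4.20, and spanned 0.95 log2 units, or 1.93-fold. The difference between the scores ran from -1.31 in R63494_1 to -0.32 in R63500_1 and lay between -0.98 and -0.79 in the 4 other codes, so the classes did not keep 1 ratio over the libraries. Library R63500_2 had a mitosis score of 3.42, against 3.95 and 3.96 in the other R63500 libraries. No test was made of the scores.

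**Figure D5:**
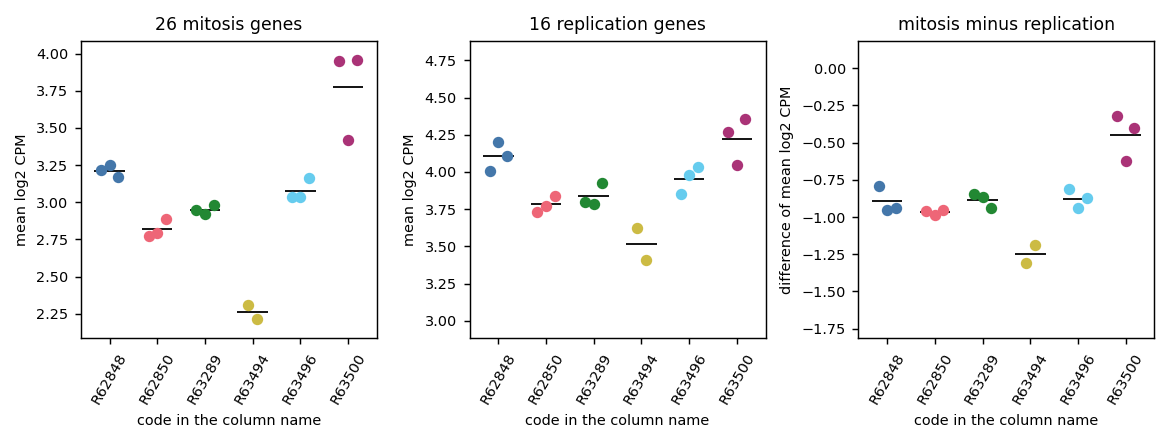
Mean log2 CPM over the 26 mitosis genes, over the 16 replication genes and the difference of these means in each of the 17 libraries, by code, on axes of equal span; points are libraries and short lines are code means. Mitosis spans 1.74 log2 units from R63494 to R63500 and replication 0.95.

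As a share of all counts both classes were small. The mitosis genes took 0.0207% of counts in R63494_2 (95% Wilson interval 0.0201% to 0.0213%) and 0.0525% in R63500_3 (0.0515% to 0.0536%). The replication genes took 0.0243% to 0.0419%. Both intervals reflect counting error alone. Per kilobase, the sum of the 26 mitosis genes divided by that of the replication genes was 0.742 to 0.816 in R62848, 0.843 and 0.970 in R63494, 0.817 to 0.934 in R62850, R63289 and R63496, and 0.904 to 1.199 in R63500. The codes overlapped in this ratio. Without Plk1, left out after its values were seen, the ratio was 0.490 and 0.492 in R63494, 0.557 to 0.697 in the 4 other codes and 0.766 to 0.960 in R63500. In whole tissue, fewer cycling cells and less of these transcripts per cycling cell cannot be told apart.

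Further genes of mitosis and of replication were read from lists of pathway genes. Of 50 further mitosis genes, 49 were tested and 37 passed (75.5%, beside 48.7% of all genes tested), with a median code fold of 2.77. Their highest code mean lay in R63500 for 40 and their lowest in R63494 for 39, beside 18.3% and 22.5% of all genes tested. Ndc80, a kinetochore subunit that binds microtubules, ran from 0.363 CPM in R63494_1 to 5.18 CPM in R63500_1 (adjusted p = 1.84e-05). Hmmr, a spindle-binding protein, ran from 0.780 CPM in R63494_2 to 9.74 CPM in R63500_3 (adjusted p = 8.89e-05). Of the 9 tested genes with their highest code mean elsewhere, Pttg1, the securin that holds separase inactive, was named after its values were seen. It had 11.5 to 26.3 CPM and was the only 1 of the 49 with its highest code mean in R63494 (adjusted p = 0.000238).

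Of 35 further replication genes, 11 passed (31.4%), below the 48.7% of all genes, with a median code fold of 1.48. Clspn, the claspin that relays fork stress to Chek1, ran from 0.363 CPM in R63494_1 to 8.09 CPM in R62848_1 (adjusted p = 0.00359). Dscc1, a loader of the clamp, had 0 to 2.16 CPM and did not pass (adjusted p = 0.419). Of the 35, 14 had their highest code mean in R63500 (40%) and 17 their lowest in R63494 (48.6%), beside 18.3% and 22.5% of all genes tested.

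Of 24 genes of the RB, DREAM and E2F machinery, 10 passed (41.7%), below the 48.7% of all genes tested. Their median code fold was 1.45, beside 1.49 over all genes tested. E2f8, a repressor of E2F targets, had 0.606 to 5.84 CPM (adjusted p = 0.0112), and its paralogue E2f7 had 0.0564 to 2.90 CPM and did not pass (adjusted p = 0.0731). Of the 7 inhibitors of cyclin-dependent kinases, Cdkn1a, Cdkn1c and Cdkn2b passed (42.9%, also below the share of all genes tested). Cdkn1a, the p21 protein that arrests cycling cells (mm10 chromosome 17, 29090979 to 29100722), was high in the same codes as the mitosis genes. It had 54.8, 119 and 76.6 CPM in R63500, 47.7 to 59.9 CPM in R62848 and 15.2 to 28.1 CPM in the other 11 libraries (adjusted p = 6.79e-07). Its highest library, R63500_2, was the R63500 library with the lowest mitosis score. Cdkn1c, the p57 protein, ran from 3.14 CPM in R63289_2 to 15.1 CPM in R62848_3 (adjusted p = 0.00569).

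Like the mitosis genes, the markers of several cell types were mostly lowest in R63494, but not all lists were highest in R63500. Their part in the result was not tested. All 12 fibroblast and matrix markers differed between codes, where 48.7% of all genes tested did. Their summed level was 3515 to 4098 CPM in R63494, 5655 to 8563 CPM in R62850, R63289 and R63496, 13654 to 15358 CPM in R62848 and 15240 to 17197 CPM in R63500. By mean log2 CPM they were lowest in R63494 (7.10 to 7.13) and highest in R62848 (8.75 to 8.81), with R63500 at 8.62 to 8.71. Of the 12, 7 had their highest code mean in R62848 and 5 in R63500, beside 18.7% and 18.3% of all genes tested. Dcn, decorin, ran from 444.8 CPM in R63494_2 to 880.2 CPM in R62848_1. All 10 macrophage markers passed, with a sum of 708 to 911 CPM in R63494, 1320 to 1659 CPM in R63500 and 1041 to 1612 CPM elsewhere, and Lyz2, lysozyme, had 297 to 766 CPM. Of 10 endothelial markers 8 passed, with a sum of 376 to 420 CPM in R63494, 501 to 621 CPM in R63500 and 670 to 757 CPM in R62848. Elsewhere the sum was 407 to 524 CPM. Of the 10, 7 had their highest code mean in R62848 and 0 in R63500, beside 18.7% and 18.3% of all genes tested. The lowest code mean lay in R63494 for 7, beside 22.5% of all genes tested. Plvap, of fenestrated endothelium, had 33.4 to 108 CPM.

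Other lists followed the mitosis genes in part or not at all. Their counts of markers passing stand beside 48.7% of all genes tested. The 15 cholangiocyte markers, 14 of which passed, summed to 9525 to 10101 CPM in R63494 and 10279 to 10982 CPM in R63500. Gene by gene, 9 of the 15 had their highest code mean in R63494 and 3 in R63500, beside 21.6% and 18.3% of all genes tested. Per cholangiocyte score, the span of the mitosis score was 1.73 log2 units. Of 9 B and plasma cell markers tested 3 passed, with sums of 3718 to 7582 CPM in R63500 and 6541 to 9366 CPM in R63494, and Igkc, an immunoglobulin light chain, had 1020 to 5296 CPM. Of 7 germinal centre B cell markers 2 could be tested, and both passed. Both had their lowest code mean in R63494, and 1 had its highest in R63500 and 1 in R63289. Bcl6, the master repressor of germinal centre B cells, had 37.5 to 59.0 CPM. T cell markers (2 of 9 passed) summed to 52.1 to 81.4 CPM in R63500 and 51.4 to 63.4 CPM in R63494, with Trbc2, a T cell receptor chain, at 5.42 to 11.3 CPM. Neutrophil markers (8 of 8) were lowest in R63500, with a sum of 291 to 523 CPM against 601 to 1799 CPM elsewhere, and S100a9, a calprotectin subunit, had 81.2 to 628 CPM. Of the 5 granulocyte precursor markers none was tested, Ms4a3 was at 0 in every library, and Mpo, Elane and Ctsg stayed below 1 CPM, with Prtn3 at 0.113 to 1.75 CPM. Erythroid markers (4 of 4) summed to 300 to 315 CPM in R62848, 120 to 148 CPM in R63500 and 50.1 to 111 CPM elsewhere, with Hbb-bs, a globin, at 25.9 to 172 CPM. By mean log2 CPM they lay at 0.642 to 0.750 in R63494 and 0.678 to 1.16 in R62850, R63289 and R63496. In R63500 they lay at 1.81 to 1.93 and in R62848 at 2.47 to 2.70. Crypt stem and progenitor markers (6 of 6) summed to 2565 to 2994 CPM in R63500 and 3050 to 3140 CPM in R63494, and Olfm4, their most abundant member, had 950 to 2251 CPM. The acinar enzyme Cela1 had 39.6 to 14399 CPM, highest in R62850_3.

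Heat shock genes, a sign of tissue handling or stress, also differed between codes (10 of 10, beside 48.7% of all genes tested). They summed to 6197 to 6607 CPM in R63494, 3673 to 4260 CPM in R62850 and 1620 to 2655 CPM in R62848, R63289 and R63496. In R63500 the sum was 5289 CPM in library 2, the R63500 library with the lowest mitosis score, and 3025 and 3053 CPM in the others. Hspa8, a constitutive chaperone, had 853 to 1830 CPM. The part of handling in the mitosis values was not tested.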

How the data were processed

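The series holds RNA-seq of 17 mouse bile duct samples. The deposited table holds raw counts per gene with gene lengths on mm10, and edgeR 3.40.2, featureCounts and STAR 2.6.1c are listed, without settings, per the submitters' processing notes. The 17 count columns carry codes that match no sample title, so they were used as libraries of the 1 labelled group. A further 17 per-sample value columns were not used. Genes were kept by edgeR's filterByExpr with an intercept-only design (15795 of 43346), scaled by TMM and tested between the 6 codes with edgeR 4.0.16's quasi-likelihood F test (robust, Benjamini-Hochberg, threshold 0.05) in R 4.3.3. CPM used the scaled totals of kept genes, and log2 CPM a prior count of 2. RPKM was computed from the counts and the deposited lengths. The fit was tested on simulated data. Low counts bound the precision: the median count over libraries was 124.5 for the middle mitosis gene and 271 for the middle replication gene. Members were matched by name, and 296 of 297 listed genes matched, 6 by identifier. Genes named in full were the 2 of highest RPKM and the 2 of largest SD in each role, the 2 of largest SD in each pathway list and the most abundant marker of each list; others were named after their values were seen. The members and lists were chosen with earlier results of these data known. Alternatives were another filter, scaling, test or prior count, leaving out each library or R62850, and removing acinar genes. Promoters came from RefSeq (GRCm38.p6).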

Additional observations from a re-analysis of the deposited data

How the results depend on the processing

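The counts of genes past the threshold and the spans of the scores stayed within 1.5 times or 1 SD of the reported values under every alternative that was run. Which code was highest or lowest was not recomputed under them. The share of all genes tested that passed was less steady. It was 48.7% in the reported fit, 29.1% with no filter on low counts and 55.3% with DESeq2's likelihood ratio test. Members passing numbered 44 in the reported fit, 46 with DESeq2's likelihood ratio test, 43 with limma-trend and 44 in the other planned fits, and mitosis genes 24, 24 and 23. Without the 3 R62850 libraries the counts were 44 members, 11 replication genes and 24 mitosis genes, while 6409 genes passed in all (40.9%). With the filter set by code size, an alternative chosen after seeing the data, 44 members passed. Leaving out each library in turn gave 41 to 45 members, 11 to 12 replication genes, 22 to 24 mitosis genes and 6719 to 7969 genes in all. The span of the mitosis score was then 1.64 to 1.74, that of the replication score 0.73 to 0.95 and that of their difference 0.87 to 0.99 log2 units. The log2 range of Dscc1, with 0 counts in its lowest library, moved to 6.33 with a prior count of 0.5. The comparisons with the deposited per-length values were not run, because those columns match no sample. No paired analysis was possible because the running numbers of the columns are not replicate numbers shared between labelled groups.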
